A study of Neurospora crassa with 4 samples.

Results

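The genes by which *Neurospora crassa* takes up and reduces nitrate and builds ammonium into glutamate and glutamine were examined in a mutant of the mRNA 3′ end cleavage machinery. The 10 genes were chosen by locus tag, from their known roles, and all 10 of them are among the 7793 genes of the deposited table. They comprise 3 regulators (*nit-2*, *nit-4* and *nmr*), 3 genes of the nitrate route (*nit-10*, *nit-3* and *nit-6*) and 4 genes of ammonium assimilation (*am*, *gdh-1*, *gln-1* and *gln-2*). Their mRNAs were counted by 3′ End Sequencing, in which each read marks the 3′ end of 1 polyadenylated mRNA. The mutant, ΔCFIm, is strain 2029, which carries hygromycin resistance (hphR) insertions that replace both *cpsf5* (NCU09014) and *cpsf6* (NCU02152), the subunits of the CFIm cleavage factor. The control is strain 1785-1, labelled MAT A, while the label of the mutant gives no mating type. Both strains carry the *csr-1*::cbox-luciferase::barR clock reporter, and each genotype is 1 strain sampled as biological duplicates. All 4 cultures grew for 72 hours at 25°C in constant light on cellophane over Vogel's salts agar with biotin, 0.25% w/v glucose and 0.17% w/v arginine, and mycelium and conidia were harvested together.

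In filamentous fungi, favoured nitrogen sources such as ammonium and glutamine hold down the genes for other sources. NIT2 is a GATA zinc finger activator of many nitrogen catabolic genes, NMR is a repressor that binds it when nitrogen is plentiful, and NIT4 is a zinc cluster activator specific to the nitrate route. Nitrate enters through NIT-10, is reduced to nitrite by nitrate reductase (NIT-3), and then to ammonium by nitrite reductase (NIT-6). Ammonium is built into glutamate by the NADP-dependent glutamate dehydrogenase encoded by *am* and into glutamine by glutamine synthetase, while the NAD-dependent enzyme of *gdh-1* mainly breaks glutamate down. Vogel's salts supply nitrogen as ammonium nitrate, so these cultures were offered ammonium and nitrate as well as arginine.

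The libraries held 5572762 to 6053869 reads on genes, and the values are normalized counts, which is read counts scaled to 1 library size. A single read was worth 0.967 to 1.05 normalized counts, and every one of the 10 genes had at least 59 reads in each library. The deleted gene *cpsf5* had 2.96 and 0 normalized counts in ΔCFIm, against 214 and 192 in controls, and *cpsf6* had 25.7 and 26.0 in ΔCFIm, against 141 and 160 in controls. The mating-type gene *matA-1* had 0 and 0 normalized counts in ΔCFIm, against 152 and 160 in controls, so mating type and the deletions cannot be told apart in any comparison here. Of the 6 conidiation markers examined (*con-6*, *con-8*, *con-10*, *eas*, *fl* and *csp-2*), 0 passed the threshold in limma, where 8.0% of all tested genes did. Among the 6, 2 (*con-8* and *csp-2*) were lower in ΔCFIm with an unadjusted p under 0.05, as 22.5% of all tested genes had in either direction. The summed level of the 6 markers was 734821 and 748921 normalized counts in ΔCFIm and 754880 and 765073 in controls, most of it from *eas*. Without *eas* it was 123345 and 203645 in ΔCFIm and 191937 and 180821 in controls, and the part of conidia in the results was not tested. In such mixed tissue, fewer cells of a kind and less RNA per cell cannot be told apart.

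Of the 10 assimilation genes, *gln-2* rose and *nit-3* fell in ΔCFIm, and the other 8 did not pass the test. The test was limma on log2(normalized count + 1) over the 6949 genes that averaged 10 normalized counts or more, with p adjusted over all of them by the Benjamini-Hochberg method and a threshold of 0.05. It called 8.0% of all tested genes, 4.62% as higher and 3.38% as lower in ΔCFIm, so 1 call in each direction among 10 genes is near that background. All 10 genes passed the filter on low values. The median log2 fold change of the 10 genes was -0.02, beside -0.0088 for all tested genes, with 5 genes above 0 and 5 below. The genotypes did not overlap at 5 of the 10 genes (2 higher and 3 lower in ΔCFIm), where 52.4% of all tested genes do not overlap (25.9% higher and 26.5% lower in ΔCFIm). The extremes were -0.91 for *nit-3* and 0.80 for *gln-2* on the log2 scale. Reads past an annotated gene end may not be counted, and the authors report moved mRNA 3′ ends at many genes in ΔCFIm. A changed mRNA level and a moved 3′ end therefore cannot be told apart by these counts.

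**Figure D1:**
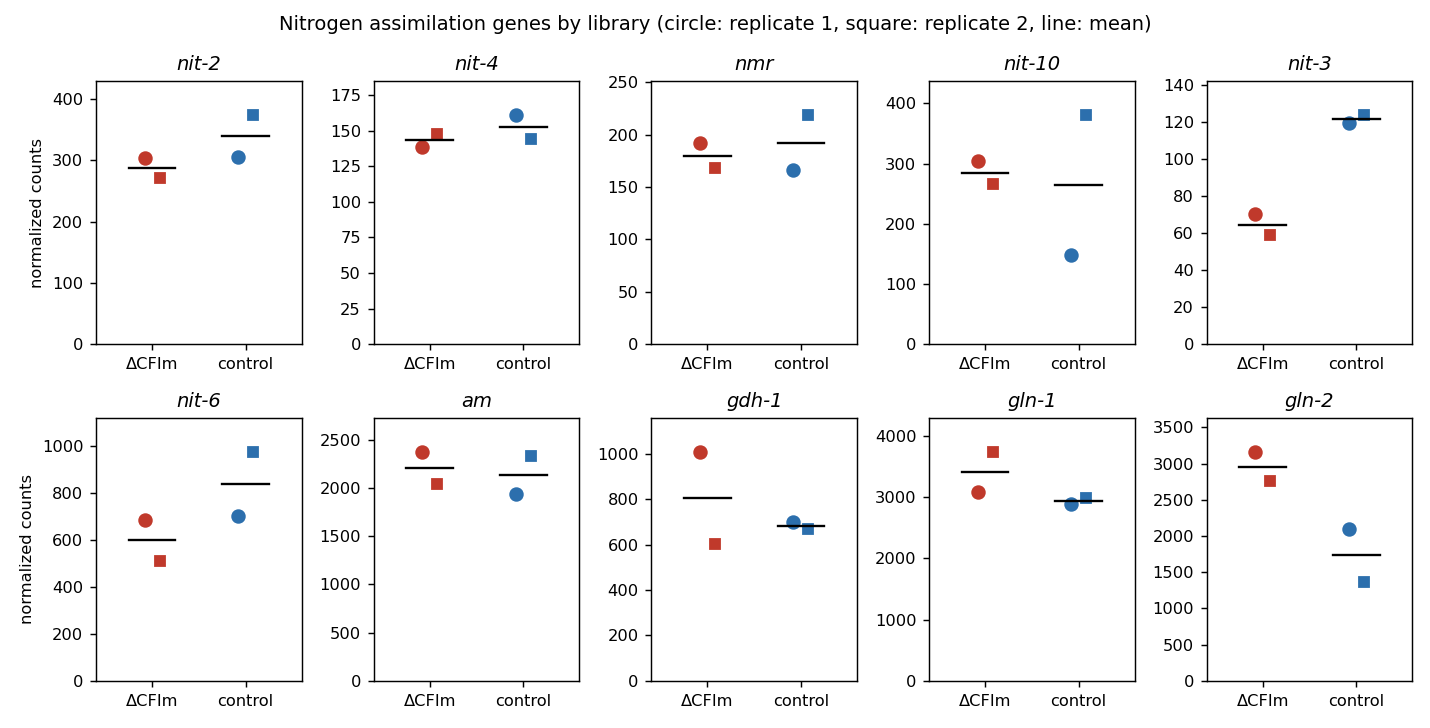
Normalized counts of the 10 assimilation genes in each library, ΔCFIm at the left and control at the right of each panel, with circles for replicate 1, squares for replicate 2 and a line at the mean. Values of *nit-2*, *nit-3*, *nit-6*, *gln-1* and *gln-2* separate by genotype, as do those of 52.4% of all tested genes. The *nit-10* gene shows its lowest (148) and highest (380) values in the 2 control libraries.

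None of the 3 regulators, the activators *nit-2* and *nit-4* and the repressor *nmr*, passed the test. The *nit-2* gene (NCU09068, linkage group I, 741884 to 746951 in the NC12 assembly) had 303 and 272 normalized counts in ΔCFIm, against 305 and 373 in controls. The ΔCFIm values lay below the control values, by about 1 normalized count at the nearest pair of libraries. The log2 fold change of *nit-2* was -0.23 (SE 0.19, 95% interval -0.63 to 0.17, adjusted p = 0.509 from limma), and it ranged from -0.38 to -0.085 with 1 library left out. This gene lies 321 kb from the deleted *cpsf6* and 1114 kb from *matA-1* on the same linkage group, and whether position had a part in its values was not tested.

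The *nit-4* gene (NCU08294, linkage group IV, 2507739 to 2512139) had 138 and 148 normalized counts in ΔCFIm, against 161 and 144 in controls. These values overlapped between genotypes and varied least of the 3 regulators, with a log2 fold change of -0.09 (SE 0.20, 95% interval -0.51 to 0.33, adjusted p = 0.837 from limma). The repressor gene *nmr* (NCU04158, linkage group V, 5027349 to 5030561) had 192 and 168 normalized counts in ΔCFIm, against 166 and 218 in controls. Both ΔCFIm values of *nmr* lay inside the range of the controls, and its log2 fold change was -0.09 (SE 0.20, 95% interval -0.53 to 0.36, adjusted p = 0.848 from limma). For each regulator the interval included 0 but did not exclude a moderate difference. For *nit-2*, it ran from a level of 0.645 to 1.13 times that of the controls.

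In the nitrate route, nitrate reductase fell in ΔCFIm, nitrite reductase was lower without passing the adjusted threshold, and the transporter varied more between duplicate controls than between genotypes. The nitrate reductase gene *nit-3* (NCU05298, linkage group IV, 5420216 to 5423422) had 70.2 and 58.9 normalized counts in ΔCFIm, against 120 and 124 in controls. Both ΔCFIm libraries were below both control libraries, and *nit-3* was the least abundant of the 10 genes in either genotype. Its mean was 64.5 ± 7.94 normalized counts in ΔCFIm and 122 ± 2.84 in controls (SD, N = 2 each), which is 1.89-fold lower in ΔCFIm. The log2 fold change of *nit-3* was -0.91 (SE 0.22, 95% interval -1.39 to -0.43, adjusted p = 0.0240 from limma). The reads behind it were 71 and 59 in ΔCFIm and 114 and 128 in controls. The call on *nit-3* was lost without control replicate 1 (log2 fold change -0.93, adjusted p = 0.0947 from limma) and without control replicate 2 (-0.89, adjusted p = 0.142), though the size of the difference hardly moved.

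The nitrite reductase gene *nit-6* (NCU04720, linkage group VI, 534862 to 539145) had 687 and 509 normalized counts in ΔCFIm, against 703 and 975 in controls. The genotypes did not overlap, but the highest ΔCFIm value and the lowest control value were within 16 normalized counts of each other. The log2 fold change of *nit-6* was -0.48 (SE 0.21, 95% interval -0.93 to -0.03), with an unadjusted p of 0.0369 and an adjusted p of 0.187 from limma. The size of this difference depended on single libraries. It was -0.25 without control replicate 2 (adjusted p = 0.838 from limma), -0.27 without ΔCFIm replicate 2 (0.403), -0.72 without control replicate 1 (0.116) and -0.70 without ΔCFIm replicate 1 (0.0226), and only the last of these passed. Of all tested genes, 22.5% had an unadjusted p under 0.05, and 3 of the 10 assimilation genes (*nit-3*, *nit-6* and *gln-2*) did.

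The nitrate transporter gene *nit-10* (NCU07205, linkage group V, 6247448 to 6250397) had 304 and 266 normalized counts in ΔCFIm, against 148 and 380 in controls. The ΔCFIm libraries were close to each other and lay between the control libraries, which differed 2.57-fold. The log2 fold change of *nit-10* was 0.26 (SE 0.32, 95% interval -0.44 to 0.96, adjusted p = 0.695 from limma). Its direction was set by 1 control library, since it was 0.94 without control replicate 2 (adjusted p = 0.0321 from limma) and -0.42 without control replicate 1 (adjusted p = 0.541). The next annotated gene, NCU11348, ends 4 bases before *nit-10* begins. It had 323 and 191 normalized counts in ΔCFIm, against 286 and 196 in controls, and so did not follow the control values of *nit-10*.

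Nitrate reductase mRNA was scarce beside nitrite reductase mRNA in every library. Because each mRNA gives 1 read at its 3′ end, counts of different genes were set side by side without a correction for length. Reads past an annotated gene end may be missing from these counts. The share of *nit-3* in the summed normalized counts of *nit-3* and *nit-6* was 9.27% (Wilson 95% interval 7.41 to 11.5%) and 10.4% (8.12 to 13.1%) in ΔCFIm replicates 1 and 2. In control replicates 1 and 2 it was 14.6% (12.3 to 17.2%) and 11.3% (9.56 to 13.2%). These intervals cover counting error only and leave out variation between cultures. PCR copies are not independent molecules, so the intervals may be too narrow even for counting error. Both ΔCFIm shares were below both control shares, with a mean difference of -3.09 percentage points. An exact two-sided permutation test of 2 libraries against 2 gave p = 0.333, the smallest p this design allows, so no call could rest on it.

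In ammonium assimilation, the *gln-2* gene rose in ΔCFIm and *gln-1*, *am* and *gdh-1* did not pass the test. The *gln-2* gene (NCU04856, linkage group IV, 485244 to 488059) is by its symbol a second glutamine synthetase gene. It had 3160 and 2760 normalized counts in ΔCFIm, against 2104 and 1363 in controls. Both ΔCFIm libraries were above both control libraries, and the controls differed 1.54-fold between themselves. The mean of *gln-2* was 2960.0 ± 283 normalized counts in ΔCFIm and 1733 ± 524 in controls (SD, N = 2 each), which is 1.71-fold higher in ΔCFIm. The log2 fold change of *gln-2* was 0.80 (SE 0.21, 95% interval 0.35 to 1.26, adjusted p = 0.0323 from limma). The call rested on control replicate 2, without which the log2 fold change of *gln-2* was 0.49 (adjusted p = 0.506 from limma), while without control replicate 1 it was 1.11. It was also lost when limma's eBayes step was fitted without a trend of spread with expression (adjusted p = 0.106).

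The *gln-1* gene (NCU06724, linkage group V, 4393869 to 4397472) had 3079 and 3739 normalized counts in ΔCFIm, against 2897 and 2985 in controls. It was the most abundant of the 10 genes, and the genotypes did not overlap. Its log2 fold change was 0.21 (SE 0.18, 95% interval -0.17 to 0.59, adjusted p = 0.538 from limma). That interval overlapped the one of *gln-2* (0.35 to 1.26), and limma did not compare the changes of the 2 genes. The share of *gln-1* in the counts of both glutamine synthetase genes was 49.4% (Wilson 95% interval 48.1 to 50.6%) and 57.5% (56.3 to 58.7%) in ΔCFIm replicates 1 and 2. It was 57.9% (56.5 to 59.3%) and 68.7% (67.3 to 70.0%) in control replicates 1 and 2. The *gln-1* share averaged 53.4 ± 5.78% in ΔCFIm and 63.3 ± 7.58% in controls (SD, N = 2 each), a difference of -9.85 percentage points (exact two-sided permutation test, p = 0.333, the smallest possible). The highest ΔCFIm share and the lowest control share differed by less than their counting intervals.

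**Figure D2:**
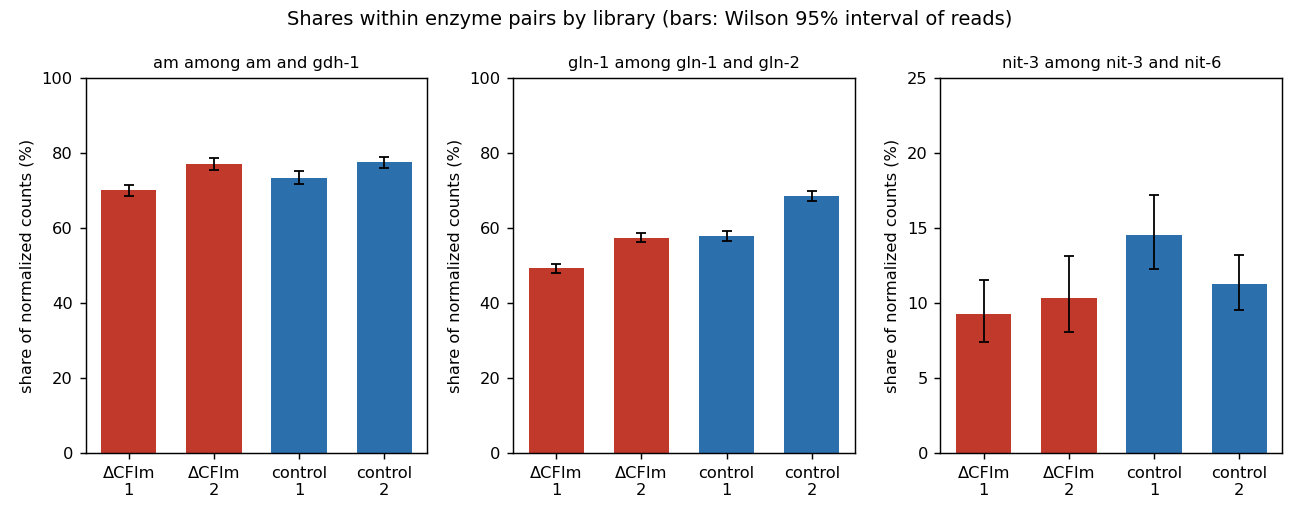
Share of normalized counts (%) taken by the first gene of each pair, by library, with ΔCFIm bars at the left of control bars and Wilson 95% intervals of the reads. The *gln-1* share is 49.4% and 57.5% in ΔCFIm beside 57.9% and 68.7% in controls, whereas the *am* shares of the genotypes overlap. The axis of the *nit-3* panel ends at 25% and those of the other panels at 100%.

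The *am* gene (NCU01195, linkage group V, 3200862 to 3203095), which encodes the ammonium-fixing glutamate dehydrogenase, had 2370 and 2036 normalized counts in ΔCFIm, against 1936 and 2329 in controls. The ranges of the genotypes nearly coincided, and the log2 fold change of 0.05 (SE 0.18, 95% interval -0.34 to 0.43, adjusted p = 0.907 from limma) was the smallest in size of the 10 genes. The *gdh-1* gene (NCU00461, linkage group III, 3944102 to 3949450), for the glutamate-degrading enzyme, had 1007 and 602 normalized counts in ΔCFIm, against 697 and 667 in controls. The ΔCFIm libraries of *gdh-1* lay on either side of the controls and differed 1.67-fold. The log2 fold change of *gdh-1* was 0.19 (SE 0.22, 95% interval -0.29 to 0.67, adjusted p = 0.665 from limma), and it was -0.18 without ΔCFIm replicate 1 and 0.56 without ΔCFIm replicate 2 (adjusted p = 0.0345 in that fit). This gene lies 291 kb from the deleted *cpsf5*, and whether position had a part in its values was not tested. The share of *am* in the counts of both dehydrogenase genes was 70.2% and 77.2% in ΔCFIm, against 73.5% and 77.7% in controls (exact two-sided permutation test, p = 0.667).

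The glutamine synthetase and *am* mRNAs were the most abundant of the 10 in both genotypes, at 1733 to 3409 normalized counts on average, and *nit-3* was the least abundant. In ΔCFIm the order of the means was *gln-1* (3409), *gln-2* (2960.0), *am* (2203), *gdh-1* (804.5), *nit-6* (598), *nit-2* (287), *nit-10* (285), *nmr* (180), *nit-4* (143) and *nit-3* (64.5). Among neighbours in that order, *gln-1* and *gln-2*, *gdh-1* and *nit-6*, and *nit-2* and *nit-10* overlapped in their libraries. In controls the order was *gln-1* (2941), *am* (2132), *gln-2* (1733), *nit-6* (839), *gdh-1* (682), *nit-2* (339), *nit-10* (264), *nmr* (192), *nit-4* (152) and *nit-3* (122). There the neighbours *am* and *gln-2*, *nit-2* and *nit-10*, and *nit-10* and *nmr* overlapped, and the spread of *nit-10* also reached *nit-4*. Thus *gln-2* stood above *am* in both ΔCFIm libraries without overlap and overlapped with it in controls.

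**Figure D3:**
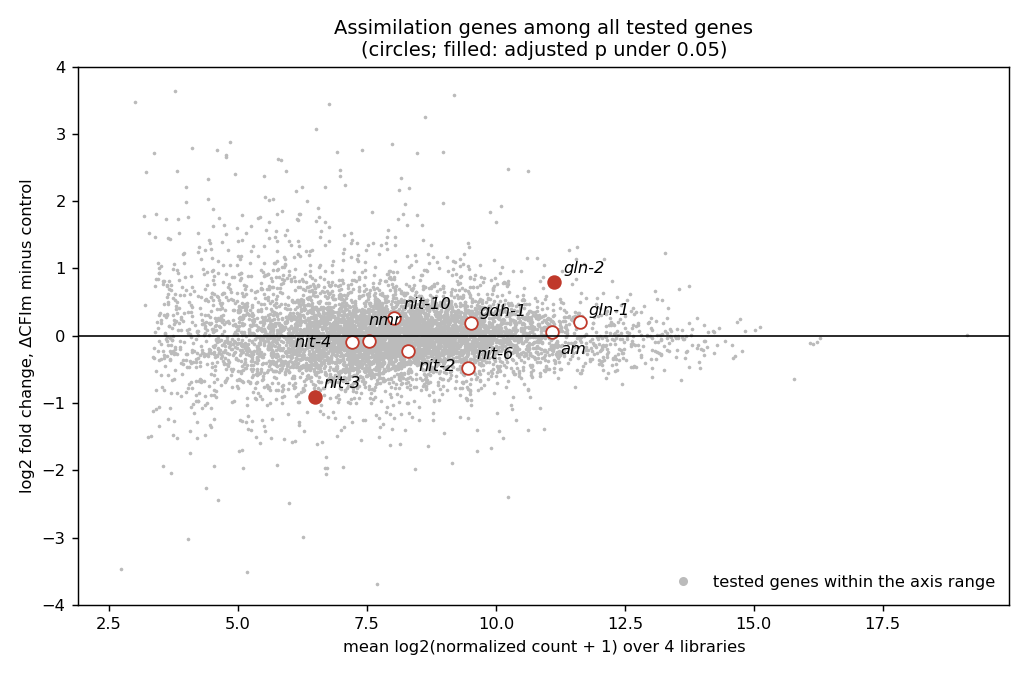
Log2 fold change (ΔCFIm minus control) against mean log2(normalized count + 1) over the 4 libraries, with grey points for the tested genes and circles for the 10 assimilation genes, filled where the adjusted p was under 0.05. The *gln-2* gene (0.80) and *nit-3* (-0.91) lie furthest from 0 of the 10. All 10 lie within the cloud, and other genes of like abundance lie further out in both directions. A further 10 tested genes lie beyond the axis limits of -4 and 4.

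Beside these, 11 other genes of nitrogen use were examined, picked by gene symbol or product description, and 1 of them passed the test. All but the glutamate synthase gene *en(am)-2* were added to the list fixed beforehand, with earlier results of these data known. The *lao* gene (NCU01066), for an L-amino acid oxidase that releases ammonium from amino acids, had 150 and 109 normalized counts in ΔCFIm, against 50.4 and 28.0 in controls. Both ΔCFIm libraries were more than 50 normalized counts above both controls. The *lao* gene rose 3.30-fold, with a log2 fold change of 1.74 (SE 0.30, 95% interval 1.09 to 2.38, adjusted p = 0.00310 from limma), and its call held with any 1 library left out. The background share of calls was 8.0%, and the median log2 fold change of the 11 genes was -0.08.

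The other 10 of these genes did not pass. Among them, 3 had an unadjusted p under 0.05, where 22.5% of all tested genes did, so this is near the background. Of all 11 genes, 2 lay higher and 4 lower in ΔCFIm without overlap, these 3 among them, and 5 overlapped. Of all tested genes, 52.4% did not overlap (25.9% higher and 26.5% lower in ΔCFIm). The glutaminase gene NCU03861 had 550 and 519 normalized counts in ΔCFIm, against 753 and 753 in controls (log2 fold change -0.49 ± 0.17 SE, limma adjusted p = 0.0911). The allantoinase gene *aln-1*, of purine breakdown, had 31.6 and 40.9 normalized counts in ΔCFIm, against 70.4 and 58.0 in controls (log2 fold change -0.81 ± 0.28 SE, limma adjusted p = 0.0944). The xanthine dehydrogenase gene *xdh-1*, which acts earlier in the same breakdown, lay in the opposite direction. It had 621 and 690.0 normalized counts in ΔCFIm, against 456 and 525 in controls (log2 fold change 0.42 ± 0.17 SE, limma adjusted p = 0.169). Glutamate synthase, *en(am)-2* (NCU01744), which makes glutamate from glutamine, had 947 and 782 normalized counts in ΔCFIm, against 801 and 748 in controls (log2 fold change 0.15 ± 0.17 SE, limma adjusted p = 0.663). The remaining 6 genes, which include the ammonium transporter gene NCU03257 and the permease genes *mtr* and *pmb*, had log2 fold changes between -0.27 and 0.09.

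**Figure D4:**
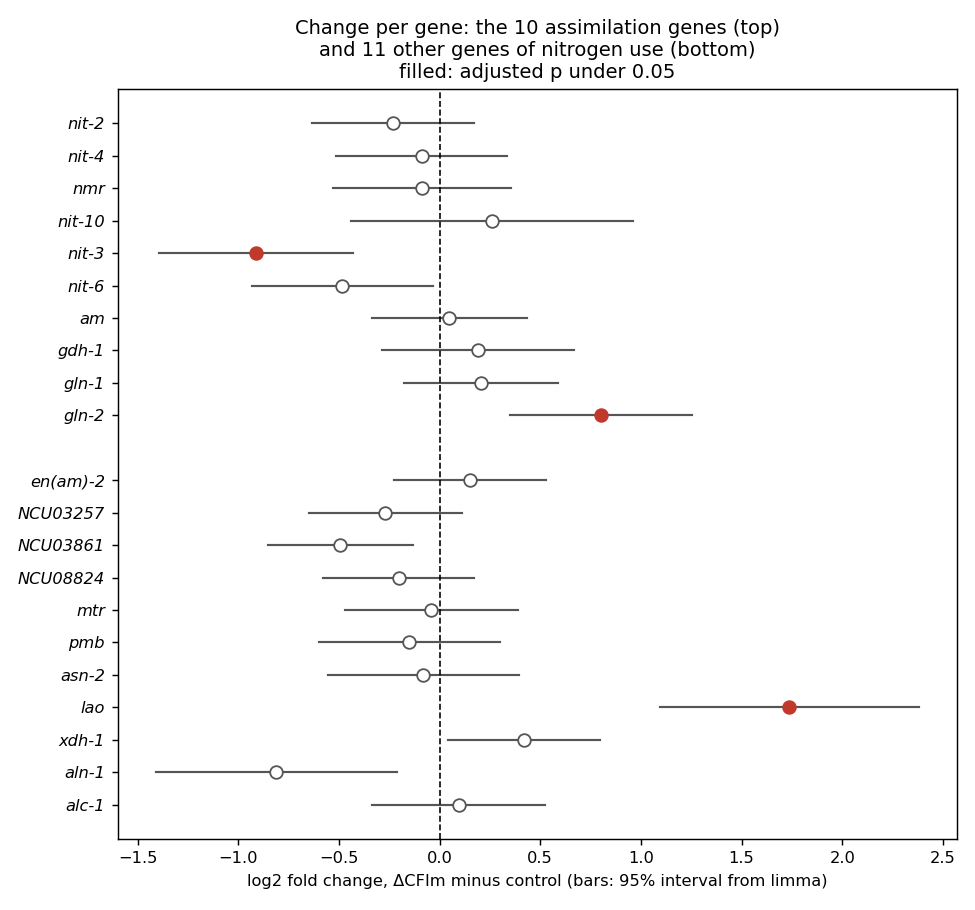
Log2 fold change (ΔCFIm minus control, x axis) of the 10 assimilation genes (upper block) and 11 other genes of nitrogen use (lower block), with 95% intervals from limma and filled circles where the adjusted p was under 0.05. The filled circles are *nit-3* at -0.91, *gln-2* at 0.80 and *lao* at 1.74, and the intervals of 7 of the 10 assimilation genes cross 0.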

How the data were processed

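Total RNA from 2 ΔCFIm and 2 control cultures was made into Lexogen QuantSeq 3′ REV libraries (75 bp single-end, strand-specific). The authors used STAR to place reads on the NC12 assembly of strain OR74A, as in FungiDB version 45, then HTSeq-count for reads per gene, and scaled each library to its size. The strand setting and tool versions are not given in the sources used here. The deposited values are thus a normalized signal per gene, and reads past an annotated gene end may not be counted. Every value was a whole number of reads times 1 factor per library (tolerance 0.001 read), which served only for depth and Wilson intervals, and no count-based test was run.

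Libraries were grouped by label. The genotype comparison used limma (version 3.58.1, R 4.3.3) with a spread trend in eBayes on log2(normalized count + 1), which understates changes of low genes. On simulated data with 6942 genes tested, this found 88% of 2-fold and 100% of 4-fold changes with 5 false calls. The simulation gave every gene the same spread beyond counting error in both genotypes. The real spread differed between genes and genotypes, so these rates need not hold for these libraries. Pseudocounts, filters, scalings, a replicate block, eBayes without a trend and leaving out each library were tried. Symbols and coordinates are from the RefSeq annotation of NC12, in which 7792 of 7793 locus tags matched. That table holds no product text, so the list fixed by product text had only *en(am)-2*. The other 10 genes of nitrogen use were not in that list and were added by symbol, or by product text in the study's supplementary gene lists. The genes named were the 10 assimilation genes, the deleted and mating-type genes, the conidiation markers and *en(am)-2*. The *lao* gene, from the added genes, was named because it passed the threshold. NCU11348, NCU03861, *aln-1* and *xdh-1*, and the genes named by their range alone, were chosen after their values were seen. Members and lists were chosen with earlier results of these data known. No sequences were used here.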

Additional observations from a re-analysis of the deposited data

How the results depend on the processing

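The calls on *nit-3* and *gln-2* held with pseudocounts of 0.1 and 5, a filter at 50 in place of 10 normalized counts, quantile normalization, median-of-ratios scaling and the replicate block. With no filter on low values, limma called 30 genes in place of 556, 0 of the 10 assimilation genes and 0 of the other 11 (*nit-3* adjusted p = 0.172, *gln-2* 0.268). At the same setting without the 229 genes at 0 in all libraries, chosen after seeing the data, 415 genes, 1 assimilation gene (*nit-3*, adjusted p = 0.0493 from limma, against 0.0702 for *gln-2*) and 1 other gene were called. Without a trend, 1 assimilation gene was called (*nit-3*). Leaving out 1 library at a time, with a lone library assumed to vary like the other genotype, gave 338 to 1116 calls, 1 to 3 assimilation genes and 1 to 2 of the others. The count was 338 without control replicate 2, and without ΔCFIm replicate 2 it was 1116.

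With a replicate block, 890 genes, the same count of 2 assimilation genes and 2 of the other genes (*lao* and NCU03861, adjusted p = 0.0447 from limma) were called. Libraries sharing a number had weakly correlated deviations across genes (Pearson's r = 0.137), and the sources do not say what a number stands for. With 1 library left out, the log2 fold change changed sign for *nmr* (-0.28 to 0.11), *nit-10* (-0.42 to 0.94), *am* (-0.084 to 0.18), *gdh-1* (-0.18 to 0.56), *mtr* (-0.31 to 0.23), *pmb* (-0.34 to 0.040), *asn-2* (-0.33 to 0.17) and *alc-1* (-0.072 to 0.26), none of them called with all libraries. The other 6 assimilation genes kept their direction under each alternative tried, though with 1 library left out *nit-2* ranged from -0.38 to -0.085, *nit-4* from -0.17 to -0.011, *nit-6* from -0.72 to -0.25 and *gln-1* from 0.066 to 0.35. The difference in share ranged from -5.44 to 1.55 percentage points for *am*, -15.2 to -4.49 for *gln-1* and -4.74 to -1.45 for *nit-3*. The cause was not tested. With 2 libraries per genotype, genes that did not pass the test may still differ by any amount within their intervals.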

Other observations

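The duplicate cultures differed more at some assimilation genes than at most tested genes, and less at others. On the log2(normalized count + 1) scale, the gap between the control duplicates was 1.35 at *nit-10*, larger than that of 99.6% of tested genes. At *gln-2* it was 0.63, and at *nit-6* it was 0.47, larger than that of 89.4% of tested genes. The median gap of all tested genes was 0.18 between the control duplicates and 0.24 between the ΔCFIm duplicates. The gap between the ΔCFIm duplicates was 0.74 at *gdh-1*, larger than that of 93.8% of tested genes. At *nit-3*, the gap was 0.25 in ΔCFIm and 0.05 in controls. The control gap was also small at *gln-1* (0.04, larger than that of 13.2% of tested genes) and *gdh-1* (0.06, 19.5%). The genes named here were picked after their gaps were seen.

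None of the annotated genes next to an assimilation gene overlapped it. Of 20 such neighbours, 13 were in the deposited table and 10 had enough counts to be tested. Of these 10, 0 passed the limma threshold, where 8.0% of all tested genes did, so this is near the background. The neighbour with the lowest adjusted p was *nuo29.9*, before *nit-3*, which had 938 and 711 normalized counts in ΔCFIm, against 547 and 522 in controls (log2 fold change 0.61 ± 0.18 SE, limma adjusted p = 0.0610). It lay in the opposite direction to *nit-3*. The next lowest was NCU04721, after *nit-6* and in the same direction as it, which had 94.9 and 106 normalized counts in ΔCFIm, against 139 and 173 in controls (log2 fold change -0.62 ± 0.21 SE, limma adjusted p = 0.0926). These genes were picked after their values were seen.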
